A study of Mus musculus with 4 samples.

Results

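The albumin gene family was described in liver tumours of C57BL/6 mice through its members albumin (Alb), alpha-fetoprotein (Afp), vitamin D-binding protein (Gc) and afamin (Afm). These 4 genes, of 48526 in each count table, were taken by name. Bulk RNA sequencing gave 4 tumour libraries, 2 labelled PBS treatment and 2 labelled AKK treatment. AKK mice received 5000000000 colony-forming units of the gut bacterium Akkermansia muciniphila by mouth, and PBS mice the saline vehicle. Both groups were dosed for 2 weeks before a methionine- and choline-deficient (MCD) diet, which produces fatty liver, and during its 2 weeks. RIL-175, a mouse hepatoma cell line carrying luciferase, was then implanted in every liver, and dosing paused for 6 days before it went on to the end. All tumours thus came from 1 implanted line on 1 diet, and the labels do not give the animals' age or sex. They call the 2 libraries of a group biological replicates but do not name the animals, and p-values here reflect only the spread among these 4 libraries.

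Albumin is the most abundant protein of adult plasma, made by hepatocytes, and carries fatty acids, bilirubin, hormones and drugs. Alpha-fetoprotein is its counterpart in the yolk sac and fetal liver. The Afp gene is shut down after birth while Alb stays on, and it is often switched on again in hepatocellular carcinoma, where the protein is a blood marker. Gc protein carries vitamin D metabolites and mops up free actin, and afamin binds vitamin E and keeps lipid-modified Wnt proteins soluble. The members share an ancestor, and in the GENCODE M21 annotation all lie on chromosome 5, with Alb, Afp and Afm in a row on 1 strand and Gc apart on the other.

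The promoters are shown because the members differ in developmental timing yet are all liver genes, and their start regions show which short sequence they share. Each window runs from 250 bases before to 50 after the RefSeq start site (GRCm38.p6), 5′ to 3′ on the gene's strand. Capitals mark the letters GTTAAT, or ATTAAC for the opposite strand, the letters that all 4 windows share among the motifs searched.
Alb, chr5:90460620-90460919, plus strand: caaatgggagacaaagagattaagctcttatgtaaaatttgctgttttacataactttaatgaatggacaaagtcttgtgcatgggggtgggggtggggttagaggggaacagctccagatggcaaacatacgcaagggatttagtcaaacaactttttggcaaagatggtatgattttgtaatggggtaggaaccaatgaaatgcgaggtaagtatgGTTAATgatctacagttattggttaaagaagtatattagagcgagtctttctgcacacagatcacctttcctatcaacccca
Afp, chr5:90490464-90490763, plus strand: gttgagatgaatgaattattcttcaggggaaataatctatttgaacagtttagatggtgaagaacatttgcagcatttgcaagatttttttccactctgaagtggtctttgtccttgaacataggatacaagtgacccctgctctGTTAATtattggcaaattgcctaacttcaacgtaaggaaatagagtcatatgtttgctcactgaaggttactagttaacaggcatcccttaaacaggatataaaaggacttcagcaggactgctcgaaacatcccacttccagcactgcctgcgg
Gc, chr5:89457849-89458148, minus strand: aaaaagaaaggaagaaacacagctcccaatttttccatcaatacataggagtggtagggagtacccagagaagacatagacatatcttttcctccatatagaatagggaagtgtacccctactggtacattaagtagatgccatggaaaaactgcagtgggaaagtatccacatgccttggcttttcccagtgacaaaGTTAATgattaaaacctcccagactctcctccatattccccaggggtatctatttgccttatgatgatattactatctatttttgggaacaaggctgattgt
Afm, chr5:90518699-90518998, plus strand: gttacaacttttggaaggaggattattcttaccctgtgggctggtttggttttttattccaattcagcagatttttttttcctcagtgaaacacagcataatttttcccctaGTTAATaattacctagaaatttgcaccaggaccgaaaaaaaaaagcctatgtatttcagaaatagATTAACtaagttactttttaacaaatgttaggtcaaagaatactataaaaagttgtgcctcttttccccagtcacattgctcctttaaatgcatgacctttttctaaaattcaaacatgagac

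The letters GTTAAT stood in 4 of 4 member windows, where 7.10% of 32851 RefSeq promoter windows of the same length held it on either strand. It began 32 bases before the start site in Alb, 52 in Gc, 105 in Afp, and 138 and 73 in Afm, where the nearer copy was on the opposite strand. Other letters separated the members. TTATGTAA, a site of the circadian PAR bZIP activators, occurred on each strand of the Alb window and in no other member's, against 0.938% of all windows. CAAAGT, an HNF4 half-site, lay in Alb and in Gc, where it overlapped GTTAAT (14.4% of all windows). TATAAA, the TATA box, lay in Afm, 30 bases before the start, and in Afp (13.6% of all windows). In Afp it began 7 bases before the RefSeq start. All distances count from the RefSeq start, and the GENCODE M21 start lies 27 bases further downstream in Alb and 23 in Afp, at the same base in Gc, and upstream in Afm (-17). TGTTTAC, a FOXA site (3.65%), and TTGCGCAA, a C/EBP site (0.183%), were in no member window, which says only that these letters are absent there. These matches describe the sequence and are no evidence of binding.

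**Figure D1:**
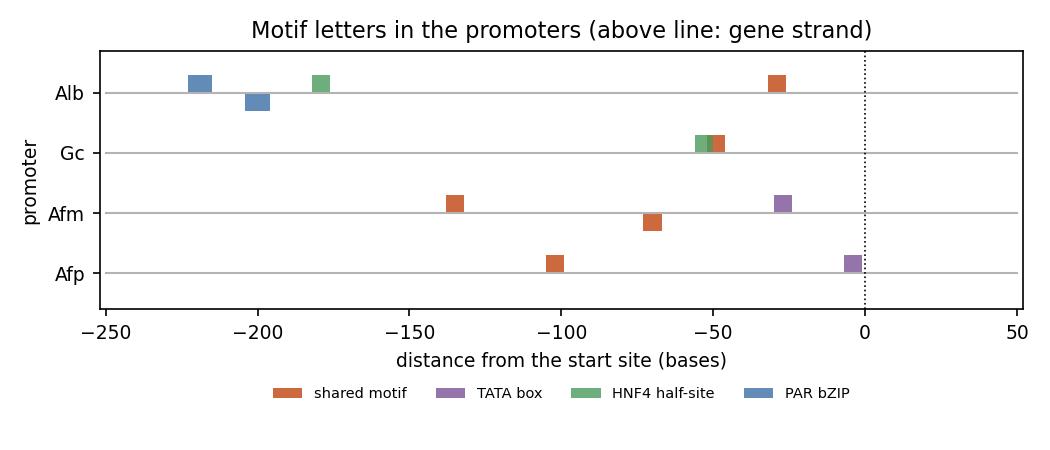
Positions of the motif letters in the promoter windows of Alb, Gc, Afm and Afp, as distance in bases from the RefSeq start site (dotted line). Boxes above a line are matches on the gene's strand and boxes below it are on the opposite strand. All 4 windows hold the shared motif, and both PAR bZIP matches are in Alb.

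The libraries held 48912489 to 59027227 reads on genes, counted on the gene's own strand. AKK 1 stood apart in make-up, with 3.92% of its reads on mitochondrial and 6.39% on ribosomal protein genes, against 1.64 to 2.33% and 3.36 to 4.04% in the others. PBS 1 held most of the skeletal muscle reads, with 7 marker genes summing to 243 CPM (read counts scaled to library size with TMM factors) against 2.32 to 7.61 CPM elsewhere. The epithelial keratin genes Krt8 and Krt18 were abundant in every tumour, from 2248 CPM summed in PBS 1 to 4284 in AKK 2. The 5 red blood cell markers summed to between 4.83 CPM in AKK 2 and 19.1 CPM in PBS 1. The table names are patterned differently for PBS and AKK, and if the pattern marks cohorts, cohort and dosing cannot be told apart. In bulk tissue, fewer cells of a type and less RNA per cell cannot be told apart either.

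Albumin differed most between the groups. Alb (ENSMUSG00000029368.10) had 16 and 47 reads in PBS 1 and PBS 2, and 8820 and 1481 in AKK 1 and AKK 2, or 0.300, 0.988, 156 and 25.3 CPM. Both AKK tumours were far above both PBS tumours, and AKK 1 was far above AKK 2. The lowest AKK value was 25.7 times the highest PBS value, while within a group the libraries differed 3.30-fold (PBS) and 6.15-fold (AKK). Mean levels were 0.644 CPM ± 0.487 (SD, n = 2) in PBS and 90.7 CPM ± 92.4 (SD, n = 2) in AKK. The log2 fold change, AKK minus PBS, was 7.15 (SE 1.12, 95% interval 4.38 to 9.92), with an adjusted p of 0.182 in edgeR's quasi-likelihood test over all 17479 genes tested. Alb therefore missed the threshold of 0.05 there, while DESeq2 gave 5.19e-06. The edgeR call depended on the libraries, with an adjusted p of 0.00224 without PBS 1, 0.00908 without PBS 2, 0.615 without AKK 1 and 0.152 without AKK 2. Without AKK 1 the log2 fold change was 5.31. Of all genes tested, 68 (0.389%) had a log2 fold change as high as that of Alb.

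Alpha-fetoprotein lay in the same range in both groups. Afp (ENSMUSG00000054932.6) had 383 and 527 reads in PBS 1 and PBS 2, and 483 and 602 in AKK 1 and AKK 2, or 7.18, 11.1, 8.54 and 10.3 CPM. The groups overlapped, with the PBS libraries at the lowest and the highest value. Mean levels were 9.13 CPM ± 2.76 (SD, n = 2) in PBS and 9.42 CPM ± 1.25 (SD, n = 2) in AKK. Its log2 fold change was 0.05 (SE 0.33, adjusted p = 0.956 in edgeR), and the 95% interval of -0.77 to 0.87 leaves room for a 1.82-fold increase or a decrease to 0.585 of the PBS level. The sign of this small difference turned without PBS 1 (-0.23) and without AKK 2 (-0.10). The fetal member was thus expressed in both groups, at 383 to 602 reads per library.

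Gc, the vitamin D-binding protein gene (ENSMUSG00000035540.12), was higher in AKK but was the member that differed most between the PBS tumours. It had 44 and 437 reads in PBS 1 and PBS 2, and 5193 and 4649 in AKK 1 and AKK 2, or 0.824, 9.18, 91.8 and 79.6 CPM. The AKK tumours were close together and above both PBS tumours, by 8.66 times from the highest PBS to the lowest AKK value. Mean levels were 5.00 CPM ± 5.91 (SD, n = 2) in PBS and 85.7 CPM ± 8.67 (SD, n = 2) in AKK. The log2 fold change was 4.10 (SE 1.01, 95% interval 1.62 to 6.58), with an adjusted p of 0.211 in edgeR and 0.0606 in DESeq2, so neither called it. In edgeR the adjusted p was 0.00111 without PBS 1, at a log2 fold change of 3.22, and 0.000204 without PBS 2, at 6.67. It was 0.617 without AKK 1 and 0.205 without AKK 2, at log2 fold changes of 4.01 and 4.20.

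Afm (ENSMUSG00000029369.17), the afamin gene, had 0 reads in PBS 1 and 1 in PBS 2, and 24 and 8 in the AKK tumours. Its 0 reads in PBS 1 allow up to 0.0562 CPM, and the other libraries read 0.0210, 0.424 and 0.137 CPM. The counts were higher in both AKK tumours but stayed below the filter, 0.185 CPM in 2 libraries before TMM scaling, so Afm was not in the edgeR test. Summed over libraries, the ratio of CPM was 28.1, AKK to PBS, with an exact 95% counting interval of 4.69 to 1144 that leaves out the spread between tumours. DESeq2, which tested it, gave an adjusted p of 0.211. An antisense gene overlaps the end of Afm, and without regard to strand Afm had 0, 2, 15 and 4 reads.

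**Figure D2:**
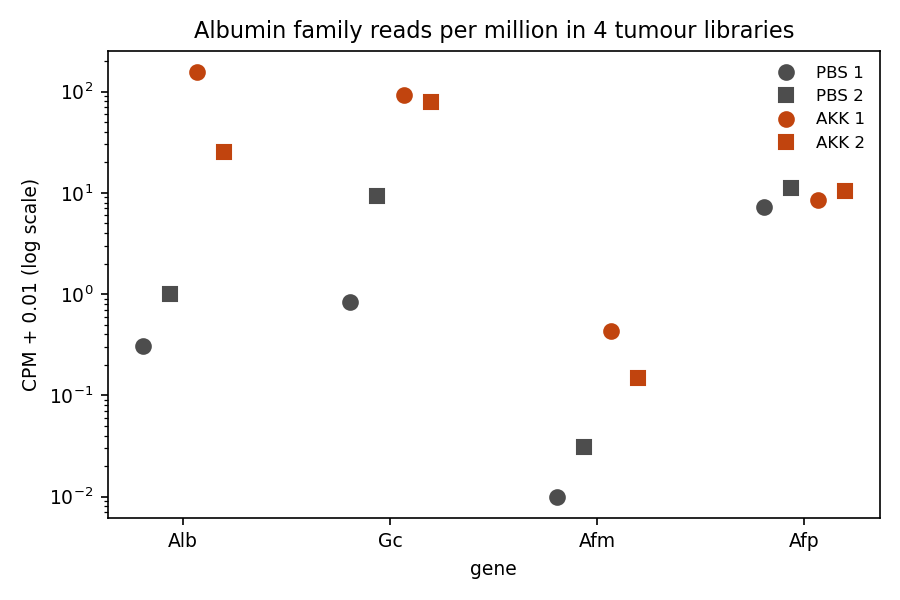
Level of each family member in each library, as CPM + 0.01 on a log axis. Circles are replicate 1 and squares replicate 2, with PBS in grey and AKK in orange. Alb and Gc are higher in both AKK libraries, Afp overlaps between the groups, and Afm is near 0 in PBS.

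Across the family, edgeR called 0 of the 3 members tested as higher or lower, where 0.00572% of all genes were called higher and 0% lower. At an unadjusted p under 0.05 in edgeR, Alb and Gc were higher (6.7% of genes), DESeq2 called Alb as higher (2.03% of genes) and limma-voom called 0 genes in all. Without a filter on low counts, edgeR called Alb and Gc higher (1.03% of genes), but not Afm. Alb and Gc lay above both PBS libraries in both AKK libraries, as did 26.7% of genes, and Afp overlapped, as did 48.6%. Alb, Afp and Gc would each have passed the filter through their PBS reads alone.

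Per length, the order of the members changed between the groups. In CPM per kilobase of annotated exon, PBS 1 had Afp at 2.13, Gc at 0.447 and Alb at 0.128. In PBS 2 the order of the leading pair was the other way round, with Gc at 4.98, Afp at 3.29 and Alb at 0.422, so Gc and Afp did not differ beyond the spread between the PBS tumours. In AKK 1 Alb was at 66.6, Gc at 49.8 and Afp at 2.54, and in AKK 2 Gc was at 43.1, Alb at 10.8 and Afp at 3.06. Alb and Gc thus changed places between the AKK tumours, while Afp lay below both of them in each. Afm was lowest in every library, with at most 0.140 per kilobase.

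The adult to fetal balance was read within each library, so that library size cancels. For 1 read of Alb there were 23.9 reads of Afp in PBS 1 and 11.2 in PBS 2, whereas for 1 read of Afp there were 18.3 reads of Alb in AKK 1 and 2.46 in AKK 2. On the log2 scale, with 0.5 added to each count, the Alb to Afp ratio was -4.54 and -3.47 in PBS and 4.19 and 1.30 in AKK. The groups did not overlap, and the difference of means, AKK minus PBS, was 6.75, against an SD of 0.753 in PBS and 2.04 in AKK (n = 2 each). Corrected for exon length, the ratio remained negative in both PBS tumours (-4.01 and -2.95) and positive in both AKK tumours (4.71 and 1.82). Its two-sided exact permutation p was 0.333, the smallest that 2 against 2 libraries allow (adjusted p = 0.5 over 3 ratios, exact permutation test).

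The Gc to Afp log2 ratio was -3.11 and -0.27 in PBS and 3.43 and 2.95 in AKK. The groups again did not overlap, with an exact permutation p of 0.333. Corrected for exon length, the Gc to Afp ratio was -2.24 and 0.60 in PBS and 4.29 and 3.82 in AKK, so it was positive in PBS 2. The Alb to Gc log2 ratio was -1.43 and -3.20 in PBS and 0.76 and -1.65 in AKK. Here the groups overlapped, since AKK 2 lay below PBS 1 (exact permutation p = 0.667). The difference of means for Alb to Gc, AKK minus PBS, was 1.87.

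**Figure D3:**
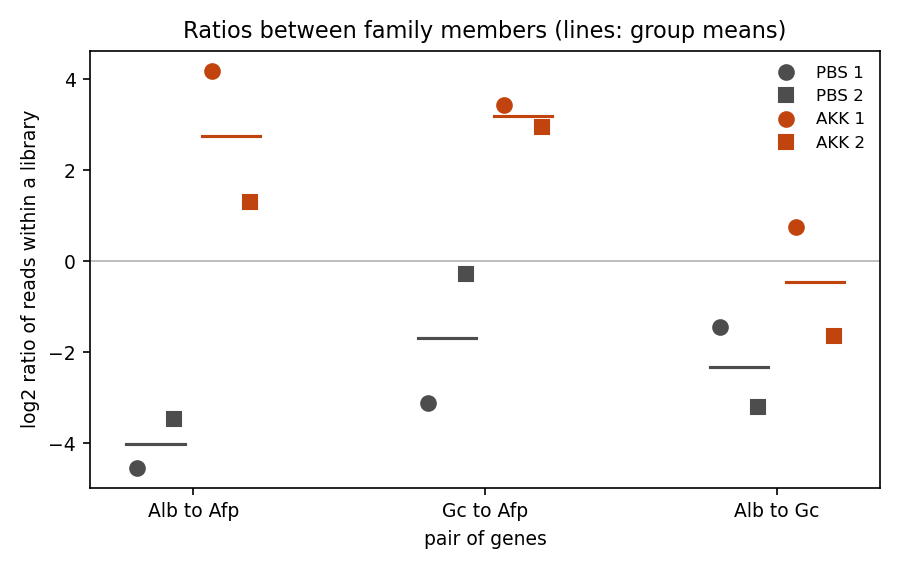
Log2 ratio of reads between pairs of family members within each library, with lines at the group means. The Alb to Afp and Gc to Afp ratios lie below 0 in both PBS libraries and above 0 in both AKK libraries, and the Alb to Gc ratio overlaps between groups. The ratios are not corrected for exon length, and with that correction Gc to Afp was 0.60 in PBS 2.

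Alb and Gc were set beside 29 other genes of adult hepatocytes, such as apolipoproteins, clotting factors and metabolic enzymes, because albumin marks that cell type. Of these 28 passed the filter, but 19 of them only through their AKK reads. This fixes their direction and favours large fold changes, so the counts and the median are a description. The 9 that passed through their PBS reads alone had log2 fold changes from -0.46 (Arg1) to 7.07 (Apoa1). In 26 of the 28 both AKK tumours lay above both PBS tumours (26.7% of all genes did), with a median log2 fold change of 6.09 against 0.02 over all genes. In edgeR 1 was called higher, the fibrinogen gene Fgb (0.00572% of all genes were), and DESeq2 called 25 (2.03% of all genes were called higher). Like Alb, the urea cycle gene Cps1 had 3 and 1 reads in the PBS tumours against 130 and 22 in the AKK tumours, and Pck1, of gluconeogenesis, 0 and 1 against 586 and 122. Arg1, also of the urea cycle, was the 1 list gene below both PBS tumours in both AKK tumours, at 90.0 and 66.4 CPM against 63.9 and 49.8 (a log2 fold change of -0.46, adjusted p = 0.399 in edgeR). A few genes of the list were well expressed in PBS tumours, above the level of Afp there (7.18 and 11.1 CPM). Apob, the structural protein of VLDL, read 241 and 583 CPM in the PBS tumours against 164 and 468 in the AKK tumours (log2 fold change -0.38, adjusted p = 0.778 in edgeR). The retinol carrier gene Rbp4 read 98.2 and 186 CPM against 370 and 244 (1.11, adjusted p = 0.280 in edgeR). The summed level of the list was 438 and 854 CPM in the PBS tumours against 1309 and 1006 CPM in the AKK tumours, with most of the PBS level from Apob and Rbp4. Apoc3, Pck1 and G6pc, which mark adult hepatocytes, were at 0 or 1 read in each PBS tumour.

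The members differed in how the libraries of 1 group were ordered. Alb was 6.15-fold higher in AKK 1 than in AKK 2, and the 28 hepatocyte genes had a median ratio of 4.77, with 26 above 1. Their ratios ran from 0.351 to 14.9, and the median over 17435 genes tested with reads in AKK 2 was 1.02. Gc differed 1.15-fold between the same tumours. Small ratios were also read for the hepatocyte genes Fga (1.21), Arg1 (1.28), Fgb (1.48), Rbp4 (1.51), Ass1 (1.58) and Fgg (1.66). Afp was lower in AKK 1, at 0.829 of the AKK 2 level. Gc was 11.1-fold and Alb 3.30-fold higher in PBS 2 than in PBS 1. No hepatocyte gene among the 21 with reads in PBS 1 exceeded 5.61-fold. Of the 17392 genes tested that had reads in PBS 1, 38 (0.218%) matched or exceeded Gc. Both counts leave out genes with 0 reads in PBS 1, whose ratio cannot be formed. Among these were the hepatocyte gene Fga, with 12 reads in PBS 2, and Serpina1b, at 0.757 CPM in PBS 2. With 2 tumours per group these differences carry no test.

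**Figure D4:**
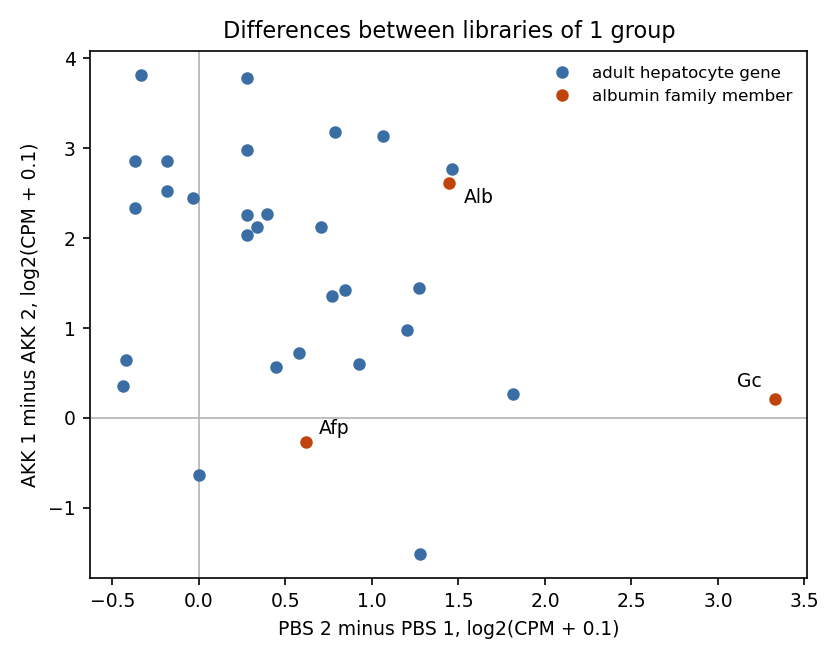
Difference between the libraries of a group on the log2(CPM + 0.1) scale, PBS 2 minus PBS 1 (horizontal) and AKK 1 minus AKK 2 (vertical), for 3 family members and 28 adult hepatocyte genes. Alb lies among the hepatocyte genes, and Gc lies apart with a difference of 3.33 between the PBS libraries and 0.21 between the AKK libraries.

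Most markers of resident liver macrophages were higher in AKK. The 6 Kupffer cell markers, named for those macrophages, summed to 1.69 and 0.546 CPM in the PBS tumours against 18.9 and 2.93 CPM in the AKK tumours. Of these, 5 of 6 lay above both PBS tumours in both AKK tumours (26.7% of all genes did), but 5 passed the filter only through AKK reads, which fixes their direction. In edgeR 0 were called, with 5 higher at an unadjusted p under 0.05 (6.7% of genes), and DESeq2 called 4 higher (2.03% of genes). Clec4f, which marks these cells in mice, had 1 and 0 reads in the PBS tumours against 112 and 23 in the AKK tumours. The scavenger receptor gene Marco had 13 and 0 against 551 and 24, Cd5l 2 and 0 against 251 and 49, Timd4 1 and 0 against 64 and 18, and Vsig4 1 and 1 against 49 and 25. Folr2 overlapped, with 72 and 25 reads against 39 and 32. The summed level was higher in AKK 1 than in AKK 2, as Alb was, but lower in PBS 2 than in PBS 1, unlike Alb, and its part in the result was not tested. The cholangiocyte markers summed to 2993 and 4389 CPM in the PBS tumours against 4879 and 5913 in the AKK tumours, with most of it from Spp1 and Krt19. Sox9 was also abundant, at 246 and 208 CPM in the PBS tumours against 200 and 204 in the AKK tumours. Krt7 reached 126 CPM in PBS 2 alone, and Epcam was low, with 7 and 1 reads in the PBS tumours.

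The genes whose profile over the 4 libraries was most like Alb encode secreted liver proteins. By Euclidean distance in log2(CPM + 0.1), centred on each gene's mean, the nearest was Apoa1 (0.242), the main apolipoprotein of HDL, at 0.187 and 0.694 CPM in the PBS tumours against 103 and 14.9 in the AKK tumours. Serpina1c (0.635), Mup20 (0.637), Kng1 (0.766) and Serpina1a (0.913) followed. The Serpina1 and Mup families hold near-identical copies, so their single values are uncertain. Only 5 of 17479 genes tested lay within a distance of 1 of Alb, and Gc lay at 2.76. For Afp the nearest were Parp11 (0.0340), Thrb (0.0427), Bcar1 (0.0552), Steap1 (0.0950) and Rab27b (0.0954). This likeness separates little, since 11859 genes, or 67.9%, lay within 1 of Afp.

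Activators of Alb and Afp were mostly expressed in both groups. Of 14 genes listed, 13 passed the filter, edgeR called 0 of them, and DESeq2 called 1 higher (2.03% of genes) and 1 lower (2.78% of genes). At an unadjusted p under 0.05 in edgeR, 3 were higher (6.7% of genes) and 2 lower (8.62% of genes), but 2 of the 3, Foxa3 and Nr5a2, passed the filter through AKK reads alone, which fixes their direction. The nuclear receptor gene Hnf4a read 74.8 and 168 CPM in the PBS tumours against 48.6 and 119 in the AKK tumours, and Cebpa had 762 and 1292 reads against 1389 and 1462. Both were thus present in the PBS tumours in which Alb was near 0.

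The activators with the largest upward differences were scarce in PBS. Foxa3, a forkhead factor of hepatocytes, had 2 and 1 reads in the PBS tumours against 62 and 32 in the AKK tumours (adjusted p = 0.182 in edgeR, 0.00608 in DESeq2). Nr5a2, a nuclear receptor that activates Afp, had 15 and 4 reads against 74 and 53 (a log2 fold change of 2.57, adjusted p = 0.235 in edgeR). Onecut1 stayed below the filter with 0 and 0 reads against 13 and 5. Dbp, a circadian PAR bZIP factor first described on the albumin promoter, had 1295 and 1313 reads against 3019 and 1871 (a log2 fold change of 0.72, adjusted p = 0.319 in edgeR). The other PAR bZIP genes had lower values in AKK. Hlf had 249 and 91 reads against 55 and 58 (a log2 fold change of -1.74, adjusted p = 0.272 in edgeR). Tef read 74.4 and 80.7 CPM against 63.0 and 74.0 (a log2 fold change of -0.18, adjusted p = 0.651 in edgeR).

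Repressors of Afp overlapped between the groups in 4 of the 5 that passed the filter (48.6% of all genes did), and neither edgeR nor DESeq2 called any, with 0 at an unadjusted p under 0.05 in edgeR. Zhx2, which silences Afp after birth in mice, read 19.7 and 24.8 CPM in the PBS tumours against 18.4 and 26.9 in the AKK tumours. Zbtb20, another postnatal Afp repressor, read 57.1 and 85.9 CPM against 94.3 and 67.2. Zfhx3, also called ATBF1, read 168 and 118 CPM against 127 and 138, and Nr2f1 39.5 and 34.3 against 47.4 and 37.7. Trp53 was the 1 without overlap, at 63.5 and 90.5 CPM against 129 and 92.8 (a log2 fold change of 0.53, adjusted p = 0.392 in edgeR). Nr0b2, a corepressor, had 2 and 0 reads against 9 and 0.

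Several other oncofetal liver genes were lower in AKK, while Afp overlapped and Sox4 and Prom1 were higher. Of 14 genes, 13 passed the filter, and 7 of these lay below both PBS tumours in both AKK tumours (24.7% of all genes did). The 2 above were Sox4 and Prom1 (26.7% of all genes lay above). Prom1 would not have passed the filter through its PBS reads alone. In edgeR 0 were called, with 6 lower at an unadjusted p under 0.05 (8.62% of genes) and 1 higher, Sox4 (6.7% of genes). DESeq2 called 5 lower (2.78% of genes). The median log2 fold change of the 13 was -0.53. Hmga2, Sox4 and Cd24a were the most abundant of the list. Sox4 read 594 and 603 CPM in the PBS tumours against 861 and 1095 in the AKK tumours (a log2 fold change of 0.71, adjusted p = 0.295 in edgeR). Hmga2 read 1504 and 1277 CPM against 735 and 1186, and Cd24a overlapped, at 583 and 610 against 385 and 659. H19, an imprinted transcript that Zhx2 represses together with Afp, read 58.1 and 9.27 CPM in the PBS tumours against 1.54 and 1.59 in the AKK tumours. Gpc3, a heparan sulfate proteoglycan of hepatoma and another Zhx2 target, had 39 and 16 reads against 1 and 4 (a log2 fold change of -3.56, adjusted p = 0.206 in edgeR). Gpc3 and Dlk1 (26 and 23 reads against 0 and 0) passed the filter only through their PBS reads, which fixes their direction. They are among the 7 genes below. The growth factor gene Igf2 read 7.49 and 0.694 CPM against 0.389 and 0.240. H19, Gpc3 and Igf2 were each highest in PBS 1, the library with 243 CPM of skeletal muscle markers against 7.61 in PBS 2. Dlk1 was level between the PBS tumours, at 0.487 and 0.483 CPM. Peg3 was higher in PBS 2 than in PBS 1, with 480 and 637 reads in the PBS tumours against 57 and 36 in the AKK tumours. Mest had 989 and 707 reads against 210 and 175. Adjusted p was 0.173 for Peg3 and 0.182 for Mest in edgeR, and 4.01e-15 and 1.02e-09 in DESeq2. The part of muscle RNA in the values of these genes was not tested. Igf2bp1 was near Afp in its flat profile, at 75.8 and 90.3 CPM against 86.0 and 104, and Lin28b varied within both groups (7.46 and 2.75 against 0.990 and 8.04 CPM).

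**Figure D5:**
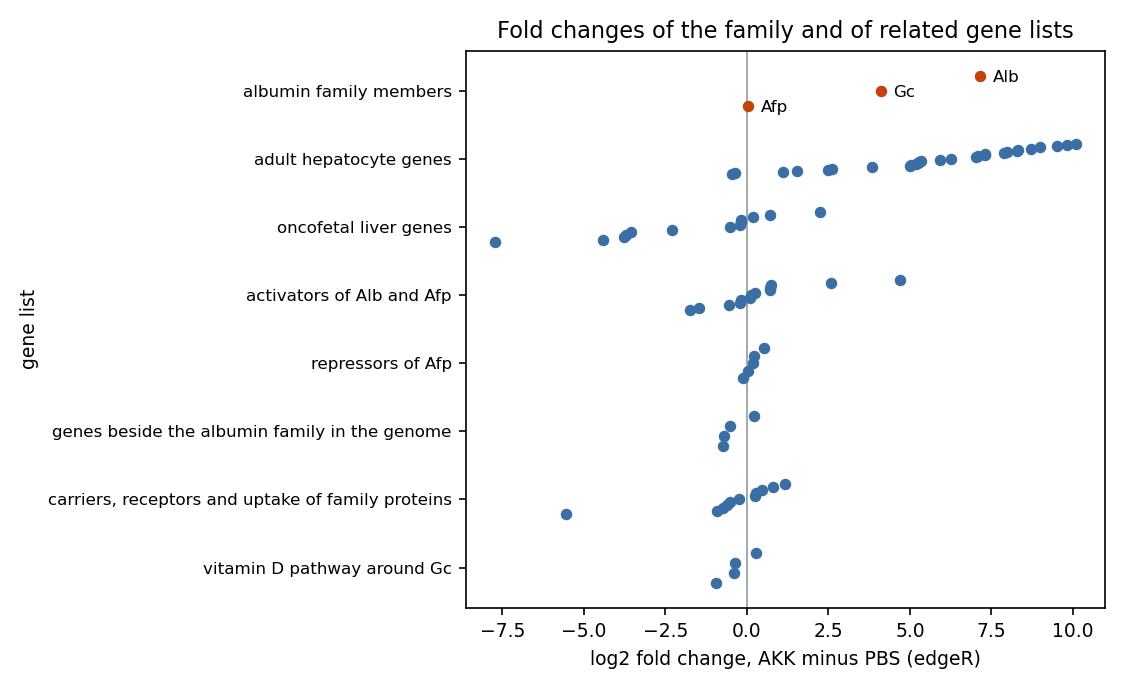
Log2 fold change, AKK minus PBS, from edgeR for each gene that passed the filter, by gene list, with family members in orange. Alb and Gc lie among the adult hepatocyte genes, of which 19 passed only through their AKK reads, and Afp lies at 0.05 among the repressors and neighbouring genes.

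Of 6 neighbouring genes on chromosome 5, 4 passed the filter. In edgeR 0 were called (0.00572% of all genes were), with 1 lower at an unadjusted p under 0.05 (8.62% of genes), and DESeq2 called 0. Ankrd17, next to Alb upstream, read 310 and 338 CPM in the PBS tumours against 188 and 212 in the AKK tumours (log2 fold change -0.70, adjusted p = 0.245 in edgeR). Rassf6, downstream of the cluster, read 28.8 and 50.1 CPM against 29.6 and 25.6, and Cox18 10.5 and 10.9 against 13.3 and 11.6. Slc4a4, the bicarbonate cotransporter gene beside Gc, read 35.9 and 118 CPM against 30.7 and 61.0, so it too was higher in PBS 2 than in PBS 1, by 3.29-fold. Adamts3 had at most 6 reads in a library and Npffr2 had 0 in each.

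Genes that handle the family's proteins were a list of 11, all of which passed the filter and were tested singly. In edgeR 0 were called, with 1 higher (6.7% of genes) and 2 lower (8.62% of genes) at an unadjusted p under 0.05, and DESeq2 called 1 lower (2.78% of genes). Lrp2, the gene of megalin, which takes up albumin and the Gc and vitamin D complex, had 69 and 25 reads in the PBS tumours against 0 and 2 in the AKK tumours (adjusted p = 0.182 in edgeR, 0.00346 in DESeq2). It is the 1 gene that DESeq2 called, and it passed the filter only through its PBS reads, which fixes its direction. Cubn, its partner cubilin, read 33.6 and 45.4 CPM against 59.0 and 77.5 (a log2 fold change of 0.79, adjusted p = 0.252 in edgeR). Fcgrt, the neonatal Fc receptor that rescues albumin from breakdown, read 10.7 and 7.86 CPM against 5.39 and 5.80 (a log2 fold change of -0.73, adjusted p = 0.348 in edgeR). Its light chain gene B2m read 797 and 1365 CPM against 1528 and 1035, with overlapping groups.

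No gene of the vitamin D pathway around Gc was called. Of 6 listed, 4 passed the filter, and edgeR and DESeq2 called 0, with 0 at an unadjusted p under 0.05 in edgeR. The receptor gene Vdr read 6.35 and 6.49 CPM in the PBS tumours against 3.66 and 5.99 in the AKK tumours, and its partner Rxra had 2588 and 2277 reads against 2828 and 3837. Cyp27a1, a mitochondrial sterol hydroxylase that also acts on vitamin D, read 6.48 and 11.7 CPM against 7.06 and 2.34. Cyp27b1, which makes the active hormone, had 17 and 18 reads against 11 and 20. Cyp2r1, the main liver hydroxylase, and Cyp24a1, which degrades the hormone, stayed below the filter with at most 13 reads in a library.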

How the data were processed

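The authors deposited 1 table of raw read counts for each tumour library, in the layout of STAR gene counting. STAR 2.5.2 and RSEM 1.2.31 are listed, without roles, per the submitters' processing notes. Aligner settings, genome build and annotation were not given in the sources used here. Per the labels' protocols, total RNA was sequenced as pairs of 151 bp reads. Such counting keeps reads that map to 1 place and overlap 1 gene. The own-strand column, with 95.4 to 96.2% of the stranded reads, was used. Summary rows that name no gene (27.6 to 31.4% of the table) were left out.

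AKK and PBS were compared with edgeR 4.0.16 in R 4.3.3 (quasi-likelihood, legacy form, TMM, filterByExpr, group only, two-sided, Benjamini-Hochberg over 17479 genes), tested on simulated data. SE and 95% intervals were derived from the F statistic. Alternatives used DESeq2 1.42.0, limma-voom (limma 3.58.1), other scalings, filters, columns and left-out libraries. Where a library was left out, the single remaining one was given the spread of the other group. Symbols matched 48058 of 48526 identifiers, and 119 of 120 list entries. Exon lengths came from GENCODE M21 and promoters from RefSeq. Intervals and limits cover counting error only.

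The members and the 13 other lists were chosen with earlier results of these data known. The text names all members, every gene of most short lists, and the 5 nearest genes. Longer lists are named only in part, and not always by the genes with most reads. Many of the genes named from them were chosen after their values were seen. Some list genes are counted but not reported by name here.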

Additional observations from a re-analysis of the deposited data

Results flagged for a closer look

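Reads on the strand opposite to the gene, which no comparison above uses, were more numerous in AKK 1 and AKK 2 than in PBS for Alb and Gc. Alb had 41 such reads in AKK 1 and 4 in AKK 2, against 0 in each PBS library, or 0.465% and 0.270% of its own-strand reads in AKK. Gc had 25 in AKK 1 and 11 in AKK 2, against 4 in PBS 1 and 2 in PBS 2, or 0.481% and 0.237% of its own-strand reads in AKK. As a share, PBS was not lower for Gc throughout, at 9.09% in PBS 1 and 0.458% in PBS 2.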

How the results depend on the processing

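The Alb log2 fold change stayed positive in all 13 alternatives (5.31 to 8.19), as did that of Gc (3.22 to 6.67). In edgeR, Alb passed the threshold without a filter on low counts (7.14, adjusted p = 0.000342) and in DESeq2 (7.12, adjusted p = 5.19e-06), and Gc without a filter (4.09, adjusted p = 0.00590). Without 1 library in turn, Alb gave 5.31 to 8.19, Gc 3.22 to 6.67, Afp -0.23 to 0.36, the Alb to Afp ratio 5.30 to 8.20 and summed Afm 3.73 to 5.42 (not computable without PBS 2, which leaves 0 reads). The Alb to Afp difference stayed positive in all 8 alternatives. Afp missed the threshold in all 13, with adjusted p of 0.838 to 0.984. The number of genes called was 1 in edgeR, 3 with upper-quartile scaling, 4 with the edgeR 4 form, 3 at a threshold of 0.1, 631 without a filter, 908 in DESeq2, 0 in limma-voom, and 0 to 324 with 1 library left out. The cause of these differences was not tested.

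The labels do not say whether same-numbered tumours were paired. The deviations of same-numbered libraries correlated with r = -0.02 over 17479 genes. This correlation runs over genes, not over pairs of tumours, so it cannot decide whether the tumours shared a cage, day or batch. With the replicate block, edgeR called 209 genes, Alb was at 6.67 (adjusted p = 0.0241), Gc at 4.82 (adjusted p = 0.0419) and Afp at 0.07, and the Alb to Afp difference was 6.75. Depth limits Afm, and Alb in PBS, where 16 reads carry an exact 95% interval of 9.15 to 26.0.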

Other observations

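Another gene of the family, Albfm1, which follows Afm on chromosome 5, had 5 and 0 reads in the PBS tumours against 35 and 6 in the AKK tumours and stayed below the filter. The genes nearest to Gc over the 4 libraries, a ranking added after its values were seen, were Serpina1b (distance 1.30), Abcc2 (1.57), Cldn3 (1.72), F2 (1.91) and Serpina3k (2.00), and 0 genes lay within 1. Abcc2, a canalicular exporter, read 0.0375 and 0.357 CPM in the PBS tumours against 6.37 and 2.60 in the AKK tumours.

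Among the cholangiocyte markers, the keratin gene Krt7 was higher in PBS 2 than in PBS 1 by more than Gc, at 1.07 and 126 CPM in the PBS tumours against 2.48 and 5.00 in the AKK tumours. Epcam, an epithelial adhesion gene of bile ducts and fetal liver, had 7 and 1 reads in the PBS tumours against 127 and 197 in the AKK tumours (log2 fold change 5.13, adjusted p = 0.182 in edgeR and 1.46e-07 in DESeq2). It passed the filter only through its AKK reads, which fixes its direction. Its level was higher in AKK 2 than in AKK 1, unlike Alb.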
